A study of Mus musculus with 6 samples.

Results

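GPC_9 is the cluster of glial progenitors that the study's cell annotation separates from a second cycling cluster, GPC_8, and it was labelled here as mitotic. Its members are the cells that carry this cluster name, 512 of the 14373 annotated cells, and they came from the P3 libraries alone. The cells were taken from the striatum of wild-type male C57BL/6 mice at postnatal day 3, dissociated, and enriched on magnetic beads for ACSA2, a surface antigen of astrocytes. Each of the 3 P3 libraries was a separate preparation from several pooled animals, so that single animals cannot be told apart, and the subventricular zone was left out of the dissection. The 3 libraries of 3-month-old mice, of the same genotype, strain and sex, held no GPC_9 cell among 1118 astroglial cells, so that a share of up to 0.268% remained possible at this number of cells. This limit pools the cells of the 3 libraries and covers counting error only, not variation between libraries. GPC_9 was described against the 7788 other P3 astroglial cells, without GPC_8, and against the 574 cells of GPC_8. The paper proposes that several P3 sub-clusters among the other astroglial cells may be contaminating astrocytes from regions next to the striatum. They were kept, and the part of regional make-up in the differences was not tested.

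During cell division a cell first copies its DNA in S phase and, after a gap, condenses and separates its chromosomes in mitosis. Entry into mitosis is driven by the kinase Cdk1 with its B-type cyclins. Exit is driven by the anaphase-promoting complex (APC/C), a ubiquitin ligase that marks cyclins for destruction with the help of the activator Cdc20 and the conjugating enzyme Ube2c. Many mitotic genes are transcribed late in the cycle from promoters with CCAAT boxes and a CHR element, whereas genes for DNA replication are often transcribed earlier from promoters with E2F sites. In the newborn forebrain, astrocytes are produced in part by local division of immature glia.

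GPC_9 made up 6.85% of the P3 astroglial cells in replicate 1 (136 of 1985 cells, 95% Wilson interval 5.82 to 8.05%), 5.64% in replicate 2 (175 of 3103 cells, 4.88 to 6.51%) and 5.31% in replicate 3 (201 of 3786 cells, 4.64 to 6.07%). The mean share was 5.93% ± 0.812 (SD, n = 3), and that of GPC_8 was 6.69% ± 1.69. The summed counts behind the GPC_9 values were 2433640, 2527991 and 2531510 UMIs. Of the 512 cells, 1 shared its barcode sequence with a cell of another P3 library. On re-clustering by the authors, 485 of the 512 cells fell in sub-cluster 8, where they formed 89.2% of its 544 P3 cells, and 22 fell in sub-cluster 4. These 22 cells were shallow, with a median of 3398.5 UMIs, and 19 of them came from replicate 3.

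GPC_9 cells carried more RNA counts than other astroglial cells. Their median was 15092.5 UMIs per cell in replicate 1, 12262 in replicate 2 and 10628 in replicate 3, against 9112, 7381 and 5088.5 in the other cells. GPC_9 was thus higher in 3 of 3 libraries, 1.79-fold on average (log2 difference 0.84 ± 0.19, SD, n = 3). The exact sign-flip permutation test gave p = 0.25, the smallest that 3 libraries allow. In GPC_8 the medians were 18550, 19050 and 15083 UMIs, above GPC_9 in every library (exact sign-flip permutation test, p = 0.25, the same limit). At an equal depth of 2000 UMIs the median number of genes per cell was 1129 ± 33.9 in GPC_9 and 1129 ± 26.1 in the other cells, a difference of -0.667 ± 19.2 genes (exact sign-flip permutation test, p = 1). At 5000 UMIs the difference was -41.2 ± 22.7 genes, lower in GPC_9 in 3 of 3 libraries (exact sign-flip permutation test, p = 0.25, the same limit). Thinning to 2000 UMIs left out 941 of 3404 other cells in replicate 3 and 3 of 201 GPC_9 cells there. The median share of mitochondrial UMIs was 1.51% ± 0.497 in GPC_9 and 1.89% ± 0.634 in the other cells, lower in 3 of 3 libraries. Other cells of replicate 3 included a shallow cluster, AST_P3_4, and without it the log2 difference in UMIs was 0.72.

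The 4 markers that go with the label were all high in GPC_9. *Ccnb1*, which encodes cyclin B1, stood at 463, 324 and 372 CPM (UMIs per 1000000 UMIs of the same sum) in replicates 1 to 3, against 2.16, 2.75 and 6.70 CPM in the other cells. *Cdc20*, the APC/C activator, stood at 392, 244 and 216 CPM against 2.86, 3.27 and 5.82 CPM. The groups did not overlap for either gene. *Ube2c*, the conjugating enzyme of the APC/C, had 1186, 1297 and 1081 CPM against 5.90, 8.99 and 20.1 CPM. *Cenpf*, a kinetochore protein that accumulates in G2 and mitosis, had 1270.1, 830 and 1048 CPM against 14.3, 14.1 and 30.4 CPM. In GPC_8 the means were 164 ± 17.6 CPM for *Ccnb1*, 85.7 ± 19.5 for *Cdc20*, 666 ± 85.1 for *Ube2c* and 460 ± 85.8 for *Cenpf*, between the levels of GPC_9 and the other cells. The cluster had been set on these genes, so that the differences describe the cluster and were not tested.

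**Figure D1:**
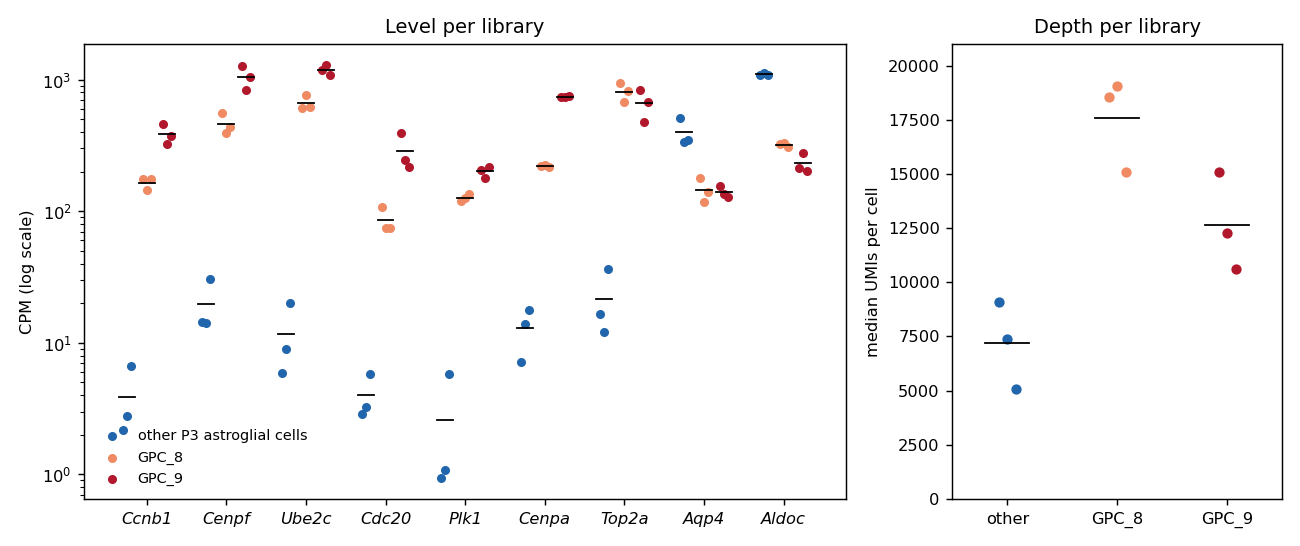
Left, level in CPM on a log axis of 9 genes in other P3 astroglial cells (blue), GPC_8 (orange) and GPC_9 (red), and right, median UMIs per cell in the same groups; each point is 1 of the 3 P3 libraries and each line is the mean. The 7 cell cycle genes are lowest in the other cells, *Aqp4* and *Aldoc* are highest there, and GPC_9 lies between the other groups in depth, at 10628 to 15092.5 UMIs.

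At the level of single cells the markers were found together. After thinning to 2000 UMIs, 3 or 4 of the 4 markers were detected in 50%, 42.8% and 44.9% of GPC_9 cells in replicates 1 to 3, in 22.4%, 19.1% and 21.3% of GPC_8 cells, and in 0.0602%, 0% and 0.406% of the other cells. GPC_9 held 230 of the 358 astroglial cells with 3 or 4 markers, or 64.2%. Over P3 cells of all types it held 57.8% of the 398 such cells. Outside the astroglia they lay in the pericyte cluster PER_6 (30 of 596 thinned cells, 5.03%) and the endothelial clusters END_7 (8 of 604) and END_13 (2 of 99). Of the other astroglial cells, 11 had 3 or 4 markers, all in the shallow cluster AST_P3_4 (11 of 124 thinned cells, 8.87%). Most of the 1034 cells of AST_P3_4 were too shallow to be thinned. The shares of 64.2% and 57.8% therefore cover cells of at least 2000 UMIs only. *Cenpf* was detected in 75.4% of thinned GPC_9 cells, *Ube2c* in 63.6%, *Ccnb1* in 46.7% and *Cdc20* in 39.8%, against 2.59%, 1.14%, 0.463% and 0.508% of the other cells. In the neuron cluster, with 36 thinned cells, 2.78% of cells or fewer had a UMI of any of the 4 genes. Without thinning the GPC_9 shares were 96.5%, 86.9%, 84.2% and 79.1%.

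The promoters of these genes are shown because the motifs named above can be read in them. Each runs from 250 bases before to 50 bases after the RefSeq start (GRCm38.p6), 5′ to 3′ along the gene, and capitals mark CCAAT or its reverse complement ATTGG and the CHR letters TTTGAA or TTCAAA. *Plk1*, a kinase of mitotic entry, and *Cenpa*, the centromeric histone H3 variant, are shown beside the 4 markers because the results below return to them.
Ccnb1, chr13:100786437-100786736, minus strand: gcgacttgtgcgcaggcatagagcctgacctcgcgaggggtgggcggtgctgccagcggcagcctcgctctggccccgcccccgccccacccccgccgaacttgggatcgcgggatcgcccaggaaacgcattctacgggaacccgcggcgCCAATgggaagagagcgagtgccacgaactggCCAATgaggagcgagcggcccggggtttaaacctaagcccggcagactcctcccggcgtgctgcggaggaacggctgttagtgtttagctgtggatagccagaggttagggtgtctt
Ube2c, chr2:164769679-164769978, plus strand: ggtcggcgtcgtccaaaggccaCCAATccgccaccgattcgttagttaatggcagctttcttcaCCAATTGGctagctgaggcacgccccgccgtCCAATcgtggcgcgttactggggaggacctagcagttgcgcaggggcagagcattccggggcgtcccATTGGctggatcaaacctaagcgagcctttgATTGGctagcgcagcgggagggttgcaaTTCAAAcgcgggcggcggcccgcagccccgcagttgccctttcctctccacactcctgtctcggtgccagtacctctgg
Cdc20, chr4:118437294-118437593, minus strand: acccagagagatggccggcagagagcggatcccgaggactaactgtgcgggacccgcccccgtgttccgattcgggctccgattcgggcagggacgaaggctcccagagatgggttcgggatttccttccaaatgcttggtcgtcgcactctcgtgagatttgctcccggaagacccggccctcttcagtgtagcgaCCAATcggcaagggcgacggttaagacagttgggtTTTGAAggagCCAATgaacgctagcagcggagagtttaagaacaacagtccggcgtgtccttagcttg
Cenpf, chr1:189688037-189688336, minus strand: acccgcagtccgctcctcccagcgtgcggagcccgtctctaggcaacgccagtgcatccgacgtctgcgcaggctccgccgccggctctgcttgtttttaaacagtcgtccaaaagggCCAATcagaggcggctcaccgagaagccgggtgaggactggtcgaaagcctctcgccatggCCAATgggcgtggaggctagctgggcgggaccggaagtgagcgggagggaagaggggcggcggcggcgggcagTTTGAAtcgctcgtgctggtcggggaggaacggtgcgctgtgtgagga
Plk1, chr7:122159185-122159484, plus strand: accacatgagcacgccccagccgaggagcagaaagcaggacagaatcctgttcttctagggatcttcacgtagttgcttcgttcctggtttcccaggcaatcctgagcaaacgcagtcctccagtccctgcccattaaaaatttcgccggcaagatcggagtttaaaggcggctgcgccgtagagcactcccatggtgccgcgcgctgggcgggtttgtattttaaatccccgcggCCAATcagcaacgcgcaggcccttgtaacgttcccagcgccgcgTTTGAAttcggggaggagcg
Cenpa, chr5:30666636-30666935, plus strand: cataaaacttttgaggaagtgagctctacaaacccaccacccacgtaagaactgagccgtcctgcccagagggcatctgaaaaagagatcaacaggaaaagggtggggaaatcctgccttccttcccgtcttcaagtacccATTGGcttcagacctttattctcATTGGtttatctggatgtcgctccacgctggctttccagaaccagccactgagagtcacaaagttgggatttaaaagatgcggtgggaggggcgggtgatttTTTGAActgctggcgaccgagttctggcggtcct

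All 6 windows held CCAAT, with 6 matches in *Ube2c*, 1 in *Plk1* and 2 in each of the others, and 2 matches in *Ube2c* overlapped each other. The CHR letters stood once in 5 of the 6 windows and were not in the *Ccnb1* window. Among the genes of 8 mitosis lists, 116 of 142 had a promoter in the table. TTTGAA was found on either strand in 53.4% of them, against 18.1% of all 27025 promoters, and CCAAT in 62.9% against 37.9%. The E2F letters (TTTCCCGC, TTTCGCGC, TTTGCCGC or TTTGGCGC on either strand) were in 7.76% of mitosis promoters and 2.32% of all. Among 44 promoters of DNA replication genes TTTGAA was in 9.09%, CCAAT in 61.4% and the E2F letters in 38.6%. Maturing astrocyte genes had TTTGAA in 3.45% and CCAAT in 37.9% of 29 promoters, and glial progenitor genes had CCAAT in 61.9% of 21. The CCAAT share of the mitosis lists was thus not particular to them. Among the 6974 promoters of genes kept in the comparison with other cells, described next, TTTGAA was in 11.6%, CCAAT in 39.6% and the E2F letters in 4.62%. These shares describe letters in a window and were not tested.

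Against the other P3 astroglial cells, GPC_9 was at least 2-fold higher in all 3 libraries for 359 of 8720 genes kept, or 4.12%, and at least 2-fold lower for 431, or 4.94%. With TMM scaling the counts were 417 and 314, so that higher genes made up 57.0% of calls in place of 45.4%. This scaling raised the mean log2 ratio of the abundant gene *Arl6ip1*, taken as an example, by 0.11. Of the 359 higher genes, 114 were in the mitosis lists, 12 in the DNA replication list and 224 in no list. Of the 431 lower genes, none was in a mitosis list, 18 were in the list of maturing astrocyte genes and 405 in no list. Mitosis genes such as *Ccnb1*, *Plk1*, *Cenpe*, *Aurkb* and *Bub1b* reached the 10 CPM needed to be kept in GPC_9 alone. Such genes could be counted as higher or not at all, and never as lower. The absence of lower mitosis genes is thus partly built in, and the counts by list below share this limit. The median log2 ratio was 3.51 over the 139 mitosis genes kept and -0.11 over all genes. Each of the 8 mitosis lists is described in turn below, from entry to exit.

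Of 19 mitotic entry genes kept, 18 were higher in GPC_9, with a median log2 ratio of 4.17. *Plk1* stood at 207, 178 and 216 CPM, against 0.935, 1.08 and 5.77 CPM in the other cells (log2 ratio 6.06 ± 0.93). *Cdk1*, the kinase itself, had 509 ± 17.1 CPM against 18.0 ± 8.09, and *Ccnb2*, a second B-type cyclin, 351 ± 61.4 against 9.28 ± 2.84. *Cks2*, a small Cdk-binding subunit, reached 574 ± 131 CPM against 13.6 ± 3.37. The replicates of GPC_9 did not overlap with those of the other cells for any of these genes. *Pimreg*, a mitotic regulator, was among the 10 largest ratios over all genes (5.95 ± 0.59). *Lin54*, a subunit of the complex that binds CHR elements, was not counted, at 22.2, 12.7 and 15.4 CPM against 9.64, 6.50 and 9.40 CPM.

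Centromere and kinetochore genes were higher in 27 of 30 cases (median log2 ratio 3.34). *Cenpa* had 732, 738 and 745 CPM, a narrow range over the 3 libraries, against 7.19, 13.98 and 17.8 CPM. *Cenpe*, a kinesin that moves chromosomes to the spindle equator, had 233 ± 80.1 CPM against 3.25 ± 2.12. Not every member stood out: *Mis12*, part of the core kinetochore, had 31.2, 24.9 and 32.0 CPM in GPC_9 and 21.0, 18.3 and 21.8 CPM in the other cells. Spindle checkpoint genes, which delay anaphase until chromosomes are attached, were higher in 7 of 8 cases. *Bub1b* had 64.6 ± 15.4 CPM against 0.934 ± 0.237, and *Bub3*, which other cells also carry, 221 ± 36.2 against 80.3 ± 7.79. All 4 genes of the chromosomal passenger complex, which corrects faulty attachments, were higher (*Birc5* 379 ± 48.1 CPM against 6.04 ± 3.62, *Aurkb* 109 ± 22.1 against 2.24 ± 0.987).

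The APC/C list was unlike the other mitosis lists, with 7 of 21 genes higher and a median log2 ratio of 0.55. The higher members were mostly its regulators: *Cdc20* (log2 ratio 5.84 ± 0.84), *Ube2c* (6.71 ± 0.91), *Ube2s*, the enzyme that extends ubiquitin chains (2.34 ± 0.01), *Fzr1*, the activator of late mitosis and G1 (1.28 ± 0.15), *Fbxo5*, an inhibitor (3.31 ± 0.20), and *Espl1*, the protease separase (3.05 ± 0.19). Of the subunits of the complex, only *Anapc15* was counted, at 60.8, 63.7 and 72.7 CPM against 25.7, 22.6 and 22.2 CPM. *Anapc11*, the catalytic RING subunit, had 226 ± 28.5 CPM against 182 ± 39.9 (log2 ratio 0.33 ± 0.16). *Pttg1*, which encodes securin, the inhibitor of separase, had 117, 120 and 104 CPM in GPC_9 and 106, 127 and 105 CPM in the other cells, and the groups overlapped.

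Spindle genes were higher in 27 of 31 cases (median log2 ratio 4.47). *Hmmr*, a spindle assembly factor, had 321, 153 and 201 CPM against 0.877, 0.258 and 3.38 CPM, the second largest log2 ratio of the genes named by size (6.63 ± 0.99) after *Ube2c*. *Nusap1*, which bundles spindle microtubules, had 486 ± 52.2 CPM against 6.22 ± 4.01, and *Aspm*, a spindle pole protein, 184 ± 40.2 against 2.30 ± 1.52. Tubulins differed among themselves. *Tuba1b* had 1328 ± 175 CPM against 293 ± 101, whereas *Tubb2b* had 1405 ± 442 against 1298 ± 253 and was not counted. Chromosome structure genes were higher in 14 of 15 cases (median 3.12), among them the abundant *Hmgb2* (3157 ± 426 CPM against 275 ± 19.7) and *H2afz*, a histone variant (4402 ± 546 against 816 ± 125). Cytokinesis genes were higher in 12 of 13 cases (median 4.65). *Prc1*, the midzone microtubule bundler, had 693 ± 159 CPM against 13.0 ± 7.61, and the exception, *Rhoa*, a GTPase used throughout the cell, had 600.4 ± 108 against 602 ± 117.

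**Figure D2:**
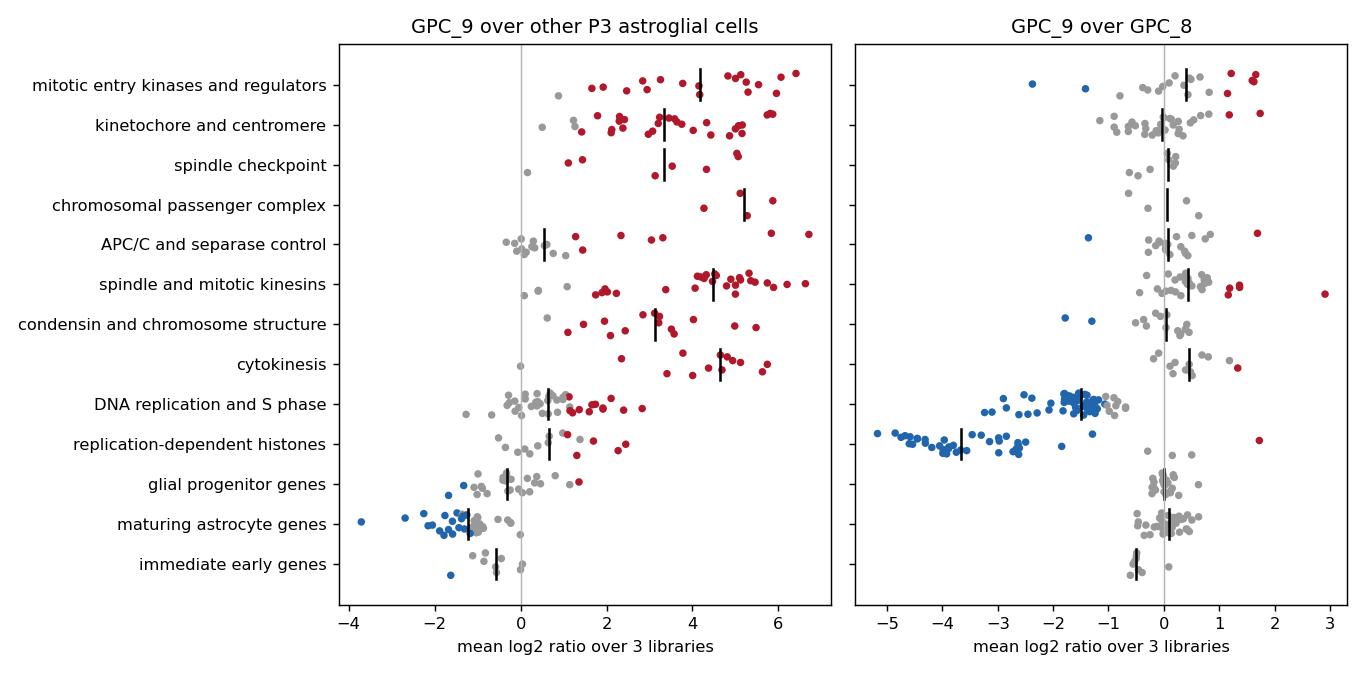
Mean log2 ratio over the 3 P3 libraries (x axis) of each kept member of 13 gene lists, GPC_9 over other P3 astroglial cells (left) and over GPC_8 (right). Red and blue points are genes at least 2-fold higher or lower in all 3 libraries, grey points are the rest, and black lines are medians: on the left the mitosis lists other than the APC/C list have medians of 3.12 to 5.19 and maturing astrocyte genes one of -1.21, while on the right replication and histone genes have medians of -1.50 and -3.67.

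GPC_8 was the other cycling cluster of the annotation. Against GPC_8, GPC_9 was higher for 30 of 8251 genes kept, or 0.364%, and lower for 160, or 1.94%. Without replicate 2 the count of higher genes was 46, under a rule that is easier to meet with fewer libraries. Among 142 mitosis genes, 14 were higher, 5 lower and 123 neither, with a median log2 ratio of 0.20. The 5 largest ratios named by size were *Tuba1c*, a tubulin (2.91 ± 0.35), *Cdkn3*, a phosphatase that acts on Cdk1 (1.85 ± 0.18), *Cenpa* (1.74 ± 0.03), the histone gene *Hist1h2bc* (1.73 ± 0.42) and *Arl6ip1*, a protein of the endoplasmic reticulum (1.72 ± 0.10). *Tuba1c* had 220, 278 and 354 CPM in GPC_9 and 21.2, 41.9 and 52.9 CPM in GPC_8. *Ccnb2*, *Cdc25c* and *Cdc25b*, the last 2 encoding phosphatases that activate Cdk1, were higher by log2 ratios of 1.66 ± 0.11, 1.63 ± 0.12 and 1.60 ± 0.21. The 5 lower mitosis genes were *Mybl2* (-2.37 ± 0.54), *Ncapd3* (-1.78 ± 0.25), *Pkmyt1* (-1.42 ± 0.31), *Fbxo5* (-1.36 ± 0.17) and *Ncapg2* (-1.30 ± 0.16), 2 of them condensin subunits, and *Pkmyt1* an inhibitory kinase of Cdk1. *Mki67*, the proliferation marker, had 482, 288 and 327 CPM in GPC_9 and 461, 282 and 322 CPM in GPC_8, and *Top2a*, which untangles DNA, had 661 ± 178 and 809 ± 132 CPM.

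Genes for DNA replication were lower in GPC_9 than in GPC_8 in 45 of 54 cases, and none was higher (median log2 ratio -1.50). *Pcna*, the sliding clamp of DNA polymerase, had 134, 110 and 129 CPM in GPC_9, 463, 354 and 405 CPM in GPC_8 and 78.7, 74.6 and 81.6 CPM in the other cells. *Rrm2*, a subunit of ribonucleotide reductase, had 222 ± 64.8, 516 ± 175 and 30.9 ± 12.4 CPM in the same order. Against the other cells 12 of 43 replication genes were higher and 31 were not counted. Replication-dependent histone genes were lower than in GPC_8 in 39 of 43 cases (median -3.67). Only 15 histone genes were kept against the other cells, so many of the 43 passed the filter through GPC_8 alone. So did some of the 54 replication genes. Such genes could be counted as lower or not at all, and never as higher. *Hist1h1b*, a linker histone, had 87.1, 62.1 and 79.8 CPM in GPC_9, 2134, 3192 and 3096 CPM in GPC_8 and 25.4, 38.3 and 55.4 CPM in the other cells. It had the largest ratio in this direction (-5.17 ± 0.54), followed by *Hist1h1a* (-4.85 ± 0.23), *Hist1h2af* (-4.75 ± 0.33), *Hist1h2ab* (-4.68 ± 0.43) and *Hist1h2bm* (-4.60 ± 0.39), each named because GPC_8 reached 50 CPM or more. *Hist1h2bc* ran the other way, at 301, 500.002 and 384 CPM in GPC_9 and 65.1, 166 and 145 CPM in GPC_8. *Ccne2*, the cyclin of S phase entry, was lower than in GPC_8 (3.74 ± 0.51 CPM against 94.5 ± 16.8) and than in the other cells (10.4 ± 1.27 CPM). The libraries were made from poly(A) RNA with a 3′ kit, and most replication-dependent histone transcripts lack a poly(A) tail, so that their levels cover the captured transcripts only.

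Genes of maturing astrocytes were lower in GPC_9 than in the other cells for 18 of 36 members and higher for none (median log2 ratio -1.21, against -0.11 over all genes). *Aldoc*, an astrocyte glycolytic enzyme, had 214, 279 and 200.3 CPM in GPC_9 and 1092, 1116 and 1075 CPM in the other cells. *Aqp4*, the water channel of astrocyte endfeet, had 157, 134 and 129 CPM against 509, 335 and 349 CPM. *Apoe*, the lipid carrier, had 3851 ± 754 CPM against 13131 ± 3285, and *Clu*, a secreted chaperone, 171 ± 81.7 against 1075 ± 503. *Gfap*, an intermediate filament, had 1.64, 12.3 and 6.32 CPM against 49.5, 68.1 and 163 CPM. Against GPC_8, none of the 36 members was counted in either direction (median 0.09), and *Aqp4* had 179, 118 and 140 CPM there.

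Progenitor genes differed less. Of 26 kept, 1 was higher, 2 were lower and 23 were not counted in either direction, with a median log2 ratio of -0.31. Over all genes kept, 4.12% were higher and 4.94% lower. *Btg2*, an antiproliferative gene, had 74.4 ± 34.1 CPM against 190 ± 93.0, and *Sparc*, a secreted matrix protein, 187 ± 34.1 against 598 ± 86.8. *Fabp7*, the fatty acid binding protein of radial glia, was abundant in both groups, at 17052 ± 2972 and 22571 ± 3460.4 CPM. The astroglial regulator *Sox9* had 299.96, 343 and 421 CPM in GPC_9 and 595, 566 and 1015 CPM in the other cells, and *Slc1a3*, a glutamate transporter, 1138 ± 21.5 against 2300 ± 170. Of 20 genes kept from the list of G1 cyclins and Cdk inhibitors, 3 were higher, 2 were lower and 15 were not counted, with a median log2 ratio of -0.12. The lower ones were *Ccne2* and *Btg2*, the antiproliferative gene already named above. The inhibitors *Cdkn2c* (139 ± 18.6 CPM against 19.3 ± 1.34), *Cdkn2d* (log2 ratio 1.45 ± 0.25) and *Cdkn3* were the higher ones, and *Cdkn1b*, another inhibitor, was not counted (log2 ratio 0.14 ± 0.19). None of 5 telencephalic and 3 other regional genes kept was counted.

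The 10 largest ratios in the lower direction were not all astrocyte genes. *Riiad1* (log2 ratio -3.59 ± 0.38), *Dynlrb2* (-3.16 ± 0.06), *Rsph9* (-2.40 ± 0.51) and *Hspa2* (-2.38 ± 0.29) stood beside *Gfap* (-3.71 ± 1.15), *Crym* (-3.21 ± 0.49), *Entpd2* (-2.81 ± 0.35), *Clu* (-2.69 ± 0.42), *Fbxo2* (-2.47 ± 0.29) and *Chadl* (-2.42 ± 0.43). *Dynlrb2* and *Rsph9* encode a dynein light chain and a radial spoke protein of cilia. *Dynlrb2* had 0.822, 5.93 and 8.69 CPM in GPC_9 and 14.6, 64.0 and 85.6 CPM in the other cells, which include the cluster AST_P3_19. Without that cluster its log2 ratio was -2.30. Against cells of sub-clusters 0, 1, 2, 9 and 11 only, the log2 ratio of *Dynlrb2* was 0.34 and that of *Riiad1* was -1.56.

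Markers of other cell types were low in GPC_9. The summed level of 7 endothelial genes was 4.52 to 8.69 CPM, of 7 microglial genes 0 to 0.791 CPM and of 4 haemoglobin genes 1.64 to 6.72 CPM, and *Tyrobp*, a microglial gene, and *Mag*, a myelin gene, had no UMI. The 7 mural genes summed to 26.9 to 77.8 CPM in GPC_9 and 46.8 to 98.6 CPM in the other cells, the 7 oligodendrocyte genes to 81.4 to 86.2 and 140 to 164 CPM, and the 7 ependymal genes to 38.6 to 49.8 and 101 to 326 CPM. The 11 neuronal genes summed to 228 to 299 CPM against 184 to 233 CPM, most of it *Sox11* (223 ± 32.2 CPM), which immature glia also express, while *Dcx*, which marks neuroblasts, had 0.396 to 1.23 CPM. The 8 genes of oligodendrocyte precursors summed to 23.7 to 62.0 CPM in GPC_9 and 14.6 to 20.8 CPM in the other cells. *Pdgfra*, their defining receptor, had 18.1, 11.1 and 1.19 CPM in GPC_9, so that replicates 1 and 2 stood apart from replicate 3, and 0.0584, 0.301 and 0.831 CPM in the other cells. At least 2 genes of that list were detected in 12 of 512 GPC_9 cells (2.34%) and in 54 of 7788 other cells (0.693%), and at least 2 neuronal genes in 36.5% and 22.2%. These shares are of unthinned cells, and GPC_9 cells were 1.79-fold deeper. Without the cells that carried at least 2 marker genes of another type other than neurons, 95 of 512 and 1910 of 7788 cells, the counts were 373 higher and 378 lower genes.

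GPC_9 cells differed among themselves. The study ordered cells by a pseudotime score, which has no unit and runs from cycling cells to adult astrocytes. In replicates 1 to 3 its median was 101, 105 and 105 in GPC_9, with 134, 173 and 182 scored cells, against 62.6, 45.3 and 48.2 in GPC_8 and 157, 155 and 156 in the scored other cells. The score was computed from the expression of the same cells, so that levels along it are a description. From bin 7 to bins 11 to 14 the median UMIs per cell of GPC_9 went from 25274, 20433 and 17851 to 10485.5, 6940 and 8585, lower in each library. Between bins 7 and 8 alone it went to 13913, 13954 and 12271 UMIs, with 15 to 31 cells per library in bin 8.

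Mitosis genes reached low levels at different points of this order. Of the 114 that were higher than in other cells, 67 had their highest level in bin 7 in all 3 libraries. In bin 9, 14 of the 114 were under 25% of their mean in bin 7, 34 were at 75% or more, and the median was 58.2%. Levels by bin were taken only for these genes and a few other named genes. The share of all genes with such a course is therefore not known, and the counts describe the 114 alone. *Top2a* had 1402, 1136 and 1362 CPM in bin 7 and 182, 132 and 117 CPM in bin 9. *Aurkb* had 227, 189 and 207 CPM in bin 7 and 18.9, 25.8 and 27.3 CPM in bin 9. *Fbxo5*, the APC/C inhibitor, was at 7.29% of its bin 7 mean in bin 9, *Prc1* at 10.3% and *Ube2c* at 20.5%. *Plk1* had 327, 317 and 345 CPM in bin 7 and 3.77, 3.82 and 15.1 CPM in bins 11 to 14.

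Other genes of mitosis were less reduced in bin 9. *Cenpa* was highest in bin 9 in all 3 libraries, with 880.0, 850 and 927 CPM, and stood at 313, 321 and 299 CPM in bins 11 to 14. *Cdc20* had 508, 286 and 278 CPM in bin 7, 361, 306 and 308 CPM in bin 9 and 49.0, 49.6 and 41.6 CPM in bins 11 to 14. Up to bin 9 the libraries thus differed, with a lower level in replicate 1 and slightly higher ones in replicates 2 and 3. *Ccnb2* had 287, 364 and 466 CPM in bin 7 and 361, 306 and 448 CPM in bin 9, with no common direction. *Ccnb1* was at 51.0% of its bin 7 mean in bin 9 and *Cenpf* at 50.1%. *Hes1*, a Notch target that maintains progenitors, had 264, 255 and 257 CPM in bin 7 and 468, 639 and 600 CPM in bin 9, its highest bin in all 3 libraries. In bins 11 to 14 *Hes1* stood at 358, 496 and 261 CPM, and replicate 3 was back near its level in bin 7. *Hist1h2bc* had 163, 149 and 153 CPM in bin 7 and 532, 1401 and 829 CPM in bins 11 to 14, where the libraries differed most. The summed level of maturing astrocyte genes was 21782, 36884 and 23789 CPM in bin 7, 17195, 20011 and 17718 CPM in bin 10 and 40829, 33292 and 29366 CPM in bins 11 to 14. Replicate 2 ended below its level in bin 7, while replicates 1 and 3 ended above theirs.

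**Figure D3:**
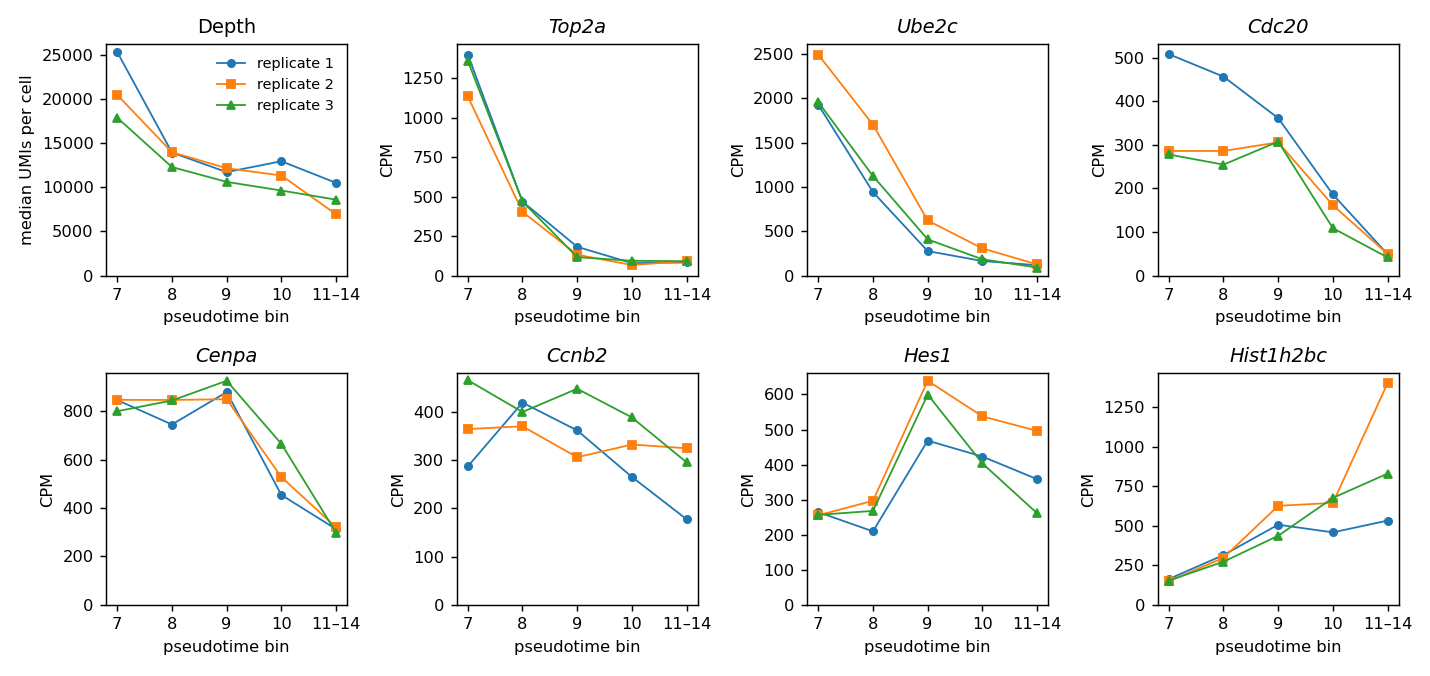
Median UMIs per cell and the level in CPM of 7 genes (y axes, from 0) in GPC_9 cells by pseudotime bin (x axis, bins 11 to 14 joined), with 1 line for each of the 3 P3 libraries. *Top2a* and *Ube2c* are low by bin 9 (117 to 182 and 277 to 622 CPM), *Cenpa* is highest in bin 9, *Cdc20* goes down to bin 9 in replicate 1 only, and *Hist1h2bc* is lowest in bin 7.

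A contrast between cells inside GPC_9, which the cluster name does not make, was then made. The 4 markers are themselves mitosis genes, so that the split is not independent of the other mitosis genes. Those genes were fitted and called with the rest, but the split itself favours their calls. Calls of mitosis genes are therefore a description, and no p is printed for them. The cells of each library were divided into a high and a low group of equal size by the share of their UMIs in the 4 markers, which were then removed, with 68, 87 and 100 cells per group in replicates 1 to 3. By edgeR's quasi-likelihood test with library as a block, 623 of 8958 genes were higher in the high group (6.95%) and 387 were lower (4.32%), at an adjusted p of at most 0.05. With DESeq2 the counts were 165 and 48, with no replicate block 267 and 35, and without replicate 3 they were 409 and 133. The high group was deeper, with a median of 19616, 15785 and 13071 UMIs per cell against 12963, 11573 and 9564.5. It was also lower in pseudotime score, with medians of 81.9, 89.1 and 84.7 against 116, 119 and 118. Marker share thus went together with depth and pseudotime score. Their parts in the calls, and in each adjusted p below, were not separated in this fit. The split also favours any other gene that changes along the cell cycle. An adjusted p below therefore describes a link with marker share inside GPC_9 and nothing further. In replicate 3, 83 of the 100 high cells and 97 of the low cells were in sub-cluster 8. With each cell thinned to 2000 UMIs before the split, 111 of 3267 genes were higher and 82 lower.

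Mitosis genes followed the 4 markers. Of 136 in the fit, 100 were among the genes called higher in the high group and 3 among those called lower, with a median log2 fold change of 1.13, against -0.00 over all genes. Among all genes fitted, 6.95% were higher and 4.32% lower. *Top2a*, *Prc1*, *Nusap1*, *Cdk1* and *Aurkb* ranked first, and their groups did not overlap. *Top2a* had 125, 79.8 and 100.4 CPM in the low groups and 1251, 770 and 1078 CPM in the high groups (log2 fold change 3.28 ± 0.11, SE from the F statistic). *Cdk1* had 142, 159 and 144 CPM against 756, 741 and 762 CPM. By list, spindle genes (27 of 31), mitotic entry (16 of 18), cytokinesis (11 of 13) and the chromosomal passenger complex (4 of 4) held mostly higher members. *Ccnb2* differed little, with 279, 324 and 366 CPM in the low groups and 306, 355 and 455 CPM in the high groups.

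In the APC/C list 8 genes were higher and 3 lower. *Fbxo5* (log2 fold change 4.08 ± 0.25) and *Fzr1* (1.86 ± 0.17) were higher in the high group, and the small subunits *Anapc13*, *Anapc16* and *Cdc26* were lower, by log2 fold changes of -0.38, -0.42 and -0.43. *Pttg1* was called in neither direction (-0.10 ± 0.12). DNA replication genes mostly did not pass, with 6 of 48 higher and 3 lower, beside 6.95% higher and 4.32% lower over all genes in the fit.

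Genes that were higher in the low group included regulators of progenitors. *Hist1h2bc* had 481, 828 and 665 CPM in the low groups and 198, 266 and 190 CPM in the high groups (log2 fold change -1.64 ± 0.10, adjusted p = 5.75e-14). *Hes1* had 432, 600.2 and 397 CPM against 251, 303 and 271 CPM (-0.84 ± 0.10, adjusted p = 1.34e-07), and *Olig2*, a factor of glial and oligodendrocyte progenitors, 331, 303 and 284 CPM against 250, 174 and 145 CPM (-0.77 ± 0.11, adjusted p = 2.43e-06). The long noncoding RNA gene *Snhg20* (-2.07 ± 0.27, adjusted p = 7.62e-07) was also lower in the high group. *Dqx1* (-2.31 ± 0.30, adjusted p = 9.14e-07) had no UMI in either group of replicate 1. In all, 6 of 27 progenitor genes were higher in the high group and 6 lower: *Pax6*, *Ptprz1*, *Nfia*, *Notch1*, *Tnc* and *Hopx* against *Hes1*, *Olig2*, *Btg2*, *Hes5*, *Olig1* and *Id3*. The shares over all genes in the fit were 6.95% higher and 4.32% lower.

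Immediate early genes, which respond within minutes to signals and also to tissue dissociation, were lower in the high group for 6 of 9 members and higher for none. Over all genes in the fit, 4.32% were lower and 6.95% higher. *Fos* had 1139, 1127 and 1504 CPM in the low groups and 758, 958 and 1006 CPM in the high groups (log2 fold change -0.52 ± 0.09, adjusted p = 0.000113), and *Ier2* followed (-0.67 ± 0.09, adjusted p = 4.16e-06). Against the other astroglial cells, 1 of 9 immediate early genes was counted, *Dusp1*, a phosphatase (28.4, 24.9 and 24.9 CPM against 81.9, 77.1 and 88.3 CPM). Maturing astrocyte genes were higher in the high group for 10 of 35 members and lower for none, but in replicate 1 the groups did not follow this for all of them: *Apoe* had 4943 CPM in the low group and 4285 CPM in the high group there, and 2601 and 2341 against 4961 and 3547 CPM in replicates 2 and 3 (log2 fold change 0.38 ± 0.13, adjusted p = 0.0427). *Pdgfra* had 0, 1.90 and 0 CPM in the low groups and 28.7, 17.8 and 2.03 CPM in the high groups (adjusted p = 1.61e-05), so that the oligodendrocyte precursor signal of the cluster lay in the high groups of replicates 1 and 2, and its part in the other differences between the groups was not tested.

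**Figure D4:**
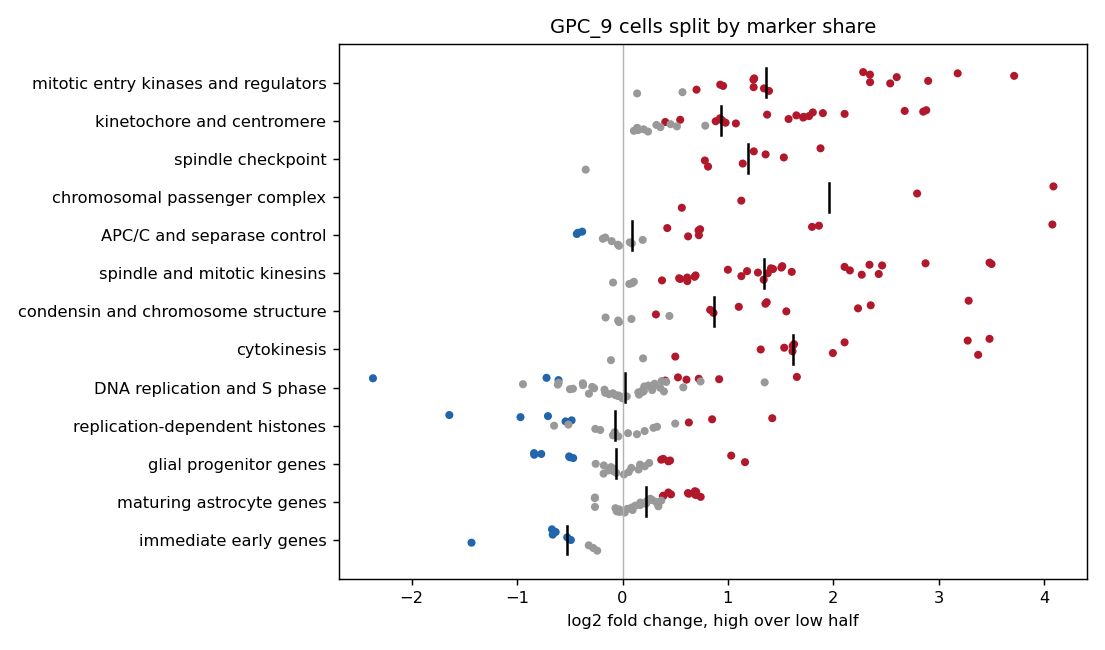
Log2 fold change of the high over the low group of GPC_9 cells (x axis) for each tested member of 13 gene lists, from edgeR over 3 libraries, with red and blue points for adjusted p of at most 0.05, grey points for the rest and black lines for medians. Mitosis lists other than the APC/C list lie mostly right of 0, with medians of 0.86 to 1.96, and immediate early genes lie left of 0 (median -0.52).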

How the data were processed

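Single cells from the striatum of wild-type C57BL/6 mice, enriched with beads against ACSA2, were profiled by 10x 3′ RNA-seq with 3 libraries from pups of postnatal day 3 (P3) and 3 from adults of 3 months (3m). The deposited table held UMI counts of 32285 genes in 16690 barcodes, which the authors made with Cell Ranger against mm10 and merged without normalization. A deposited cell table gave the authors' cluster and sub-cluster names of 14373 cells, a pseudotime score computed by the authors with Slingshot, and its bin. The authors removed cells in which fewer than 500 genes were detected or mitochondrial transcripts exceeded 10%, and clustered the rest in Seurat (version 3.1.1 per the labels) after SCTransform. Doublets were not removed here, and no doublet step is stated in the sources used here.

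Cells of GPC_9 were found by their cluster name and matched to the counts by cell name. UMIs were summed per P3 library over GPC_9, over GPC_8 and over all other astroglial clusters, and scaled to 1000000 UMIs of the same sum (CPM). Ratios were taken within a library as log2 of CPM with a pseudocount of 1. This scale understates the ratios of low genes. A gene was kept where its mean reached 10 CPM in either group, and a gene was counted as higher or lower where it differed at least 2-fold the same way in all 3 libraries. A gene kept through a single group could thus be counted as higher in that group or not at all. No p-value was computed for these ratios, because the clusters had been set on the same genes.

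UMIs per cell, and genes per cell after thinning each cell to 2000 or 5000 UMIs, were compared within libraries by an exact two-sided sign-flip permutation test, which with 3 libraries cannot give a p below 0.25. For a contrast inside GPC_9, the cells of each library were split at the median of the share of their UMIs in *Ccnb1*, *Cenpf*, *Ube2c* and *Cdc20*. A cell at the median itself was left out, these 4 genes were removed, and the sums of the high and low group were tested with edgeR's quasi-likelihood test (edgeR 4.0.16, R 4.3.3) with library as a block, TMM scaling, filterByExpr and Benjamini-Hochberg adjustment at 0.05. DESeq2 1.42.0 served as an alternative. The high and low group of 1 library deviated together from the group means (r across genes 0.346, 0.221 and 0.274), so library was used as the pairing. The scripts were tested on simulated data. Nothing in the labels ties a replicate number to a shared litter or day.

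Gene lists, the 4 markers and the part itself were chosen with earlier results of these data known. Named genes are the 4 markers, the most abundant members of each list, members counted against the direction of their list, the 10 largest ratios each way against other cells and the 5 largest against GPC_8 (at least 50 CPM in the higher group, predicted genes left out), and the 5 smallest adjusted p-values each way in the split. Others were chosen after their values were seen. A few genes that this rule or the lists would name are not reported here. Promoters of 300 bases are from RefSeq (GRCm38.p6), 1 per gene, and gene positions from GENCODE M21 (GRCm38, as mm10). Histone genes have near-identical copies, so their counts are uncertain. Intervals of shares are Wilson intervals at 95% and cover counting error only.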

Additional observations from a re-analysis of the deposited data

How the results depend on the processing

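The direction of the mitosis and maturing astrocyte lists was the same under every alternative run, with medians of 2.72 to 3.84 and -1.28 to -1.10. A pseudocount of 5 CPM moved the mitosis median to 2.72 and lower genes to 241, and no filter on low genes raised lower genes to 691 of 16869. TMM scaling moved the median of progenitor genes to -0.20. Thinning to 2000 UMIs moved the histone median to 1.11, and thinning to 5000 UMIs moved the difference in genes per cell to -41.2. With other cells from sub-clusters 0, 1, 2, 9 and 11 the medians were 3.84 for mitosis and 0.88 for DNA replication genes, and the ratio of *Dynlrb2* turned to 0.34. Under this choice of other cells 12 results moved, 1 reversed and 26 stayed the same. Leaving out each replicate in turn gave 373 to 424 higher and 457 to 614 lower genes, and 37 to 46 higher than in GPC_8. The rule is easier to meet with fewer libraries, so that a rise in these counts is partly built in.

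Inside GPC_9, the fit with no replicate block called 267 genes higher and 35 lower, DESeq2 165 and 48, and thinning to 2000 UMIs 111 and 82, from fewer genes tested. Leaving out each replicate gave 409 to 557 higher and 133 to 343 lower, lowest without replicate 3. The named genes of the split kept direction and call in 87 of 88 refits; *Dqx1* did not pass with no replicate block (adjusted p = 0.0826). No paired analysis was possible between P3 and 3m, because GPC_9 held no 3m cell. Alternatives that left out AST_P3_4, cells with markers of other types, or GPC_9 cells outside sub-cluster 8 were chosen after seeing the data.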
